A study of Mus musculus with 36 samples.

Results

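Injured lung fluid changed gene expression in cultured mouse lung pericyte-like cells at both 24 h and 6 h of exposure, and the results here concern how the effect at 24 h differed from the effect at 6 h. The comparison used 24 of the 36 libraries of the study, chosen by the treatment and time in their titles. They are cells in injured bronchoalveolar lavage fluid (BALF, the fluid recovered when the airspaces are rinsed) at 24 h, in uninjured BALF at 24 h, in injured BALF at 6 h and in uninjured BALF at 6 h. Each of these 4 groups had 6 libraries, 3 from female and 3 from male cells. Each fluid was mixed with an equal volume of medium low in serum, and the 12 libraries of cells in that medium with buffered saline were set beside them as levels only. All cells came from lung digests that were expanded on gelatin, depleted of cells bearing CD31, CD45 or CD326 and selected for PDGFRβ. The labels give no strain or age of the mice and do not say what the injury was. Nothing in the labels ties a library to its own animal or dish, and every p-value here rests on library-to-library spread alone, which may be technical.

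Pericytes wrap capillaries and share the receptor PDGFRβ with fibroblasts. In an injured lung the alveolar fluid carries cytokines, leaked plasma proteins and products of damaged cells, and stromal cells answer such signals by switching on NF-κB and AP-1 transcription factors within hours. Some of the genes so induced are shut off again quickly by feedback inhibitors and unstable mRNAs, while secreted acute phase proteins and changes of the contractile and matrix programme tend to build up later. A difference of effects between times can come from movement in either fluid, so levels in the 4 groups are given for many of the genes named. Where the difference alone is given, it does not show which fluid moved.

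Total counts ran from 17134840 to 35991683 per library, and levels are given as CPM (counts scaled to a fixed library total) scaled by TMM. Pdgfrb lay at 257 to 758 CPM over the 24 libraries, and the summed level of 15 pericyte markers had 24 h medians of 1230 (injured BALF) and 1780 CPM (uninjured BALF) and 6 h medians of 1550 (injured BALF) and 1760 CPM (uninjured BALF). Among these markers Higd1b had no count in any library, and Kcnj8 and Abcc9 stayed under 0.49 CPM. Others were present over the 24 libraries, with Cspg4 at 14.5 to 271, Mcam at 31.6 to 207, Notch3 at 8.98 to 52.5 and Rgs5 at 2.31 to 14.8 CPM. Lung fibroblast markers were also present at summed medians of 655 to 722 CPM, so these markers do not set the cells apart from fibroblasts. In bulk RNA, fewer cells of a type and less RNA per cell cannot be told apart. Summed neutrophil markers at 24 h reached 5.49 to 9.03 CPM with injured BALF, against 0.757 to 4.71 CPM with uninjured BALF. At 6 h they reached 1.46 to 4.14 CPM with injured BALF, against 0.922 to 2.46 CPM with uninjured BALF. Of the 9 neutrophil markers Camp and Mmp8 were raised at 24 h of the 3 tested, and DESeq2 called all 3. S100a8 had 376 counts in injured and 120 in uninjured BALF at 24 h over 6 libraries each, S100a9 had 15 in injured and 0 in uninjured BALF at 24 h, and Retnlg 4 in injured and 0 in uninjured BALF at 24 h. The defining markers Ly6g and Ngp had at most 2 counts in any group, and the part of these markers in the results was not tested. Mesothelial markers in the male libraries numbered 3 reached 168 CPM in injured and 23 in uninjured BALF at 24 h, and 212 CPM in injured and 244 in uninjured BALF at 6 h, and epithelial markers 14.8 CPM in injured and 1.36 in uninjured BALF at 24 h, and 28.3 CPM in injured and 28.9 in uninjured BALF at 6 h. These libraries were the highest of their group in 3 of the 4 groups and the lowest in uninjured BALF at 24 h, and the part of this imbalance in the difference was not tested beyond leaving libraries out. Male uninjured BALF 24 h replicate 3 had macrophage markers at 20.9 CPM against a group median of 71.1 CPM, and its description differs from the rest. Female uninjured BALF 24 h replicate 1 lay apart from replicates 2 and 3, which resembled each other. In 7 of the 8 groups of sex, fluid and time, replicates 1 and 2 resembled each other most, with a median SD of log2 differences of 0.408 against 0.626 for the other pairs.

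The injury effect differed between 24 h and 6 h for 57 of 14816 genes tested, 0.385% of them, by edgeR's quasi-likelihood test at an adjusted p under 0.05. For 38 genes (0.256%) the effect was higher at 24 h and for 19 (0.128%) it was lower. At 24 h injured BALF changed 935 genes (6.31%), 485 raised and 450 lowered. At 6 h it changed 773 genes (5.22%), 391 raised and 382 lowered. The count depends on how libraries 1 and 2 are treated and on which libraries enter. With libraries 1 and 2 summed, which leaves 4 libraries in each group, no gene was called, with 932 genes at an unadjusted p under 0.05 against 1462 with all libraries. When summed the difference was -1.34 for Nrg1 and 1.18 for Dgat1, against -1.41 and 1.29 with all libraries. It shrank more for Icam1 (-1.49 against -1.74) and Pmvk (1.28 against 1.55), and was slightly larger for Serpini1 (1.09 against 1.05). Summing reuses the same reads, so nothing is read from these sizes. Leaving out replicate 1, or replicate 2, in every group also gave 0 calls, while leaving out replicate 3 in every group gave 210. In limma-voom with libraries 1 and 2 fitted as 1 source, which changes the tool as well, 11 genes were called, all among the 57. The cause of the lost calls was not tested. DESeq2 called 170. Without the 2 uninjured BALF 24 h libraries that stand apart, 87 genes were called, and 48 of the 57 were among them. None of the 57 had the opposite sign in any setting that tested it, though every setting reuses libraries on which they were chosen.

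**Figure D1:**
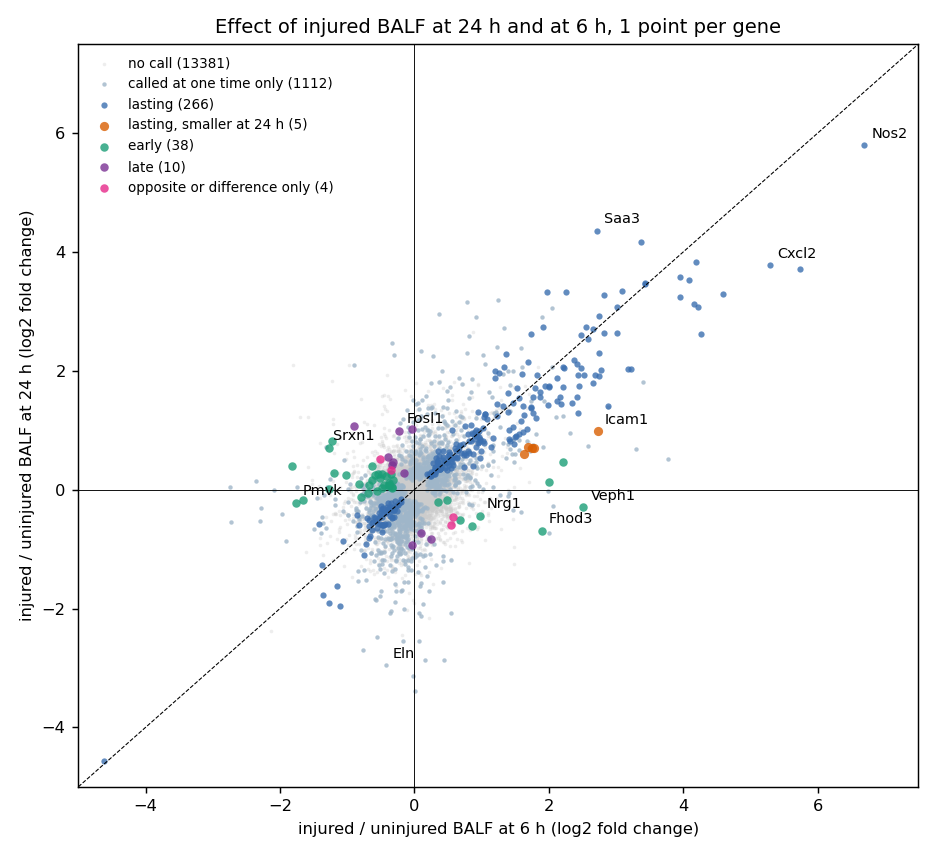
Each point is a gene, with the log2 effect of injured against uninjured BALF at 6 h on the x axis and at 24 h on the y axis, coloured by class. The dashed line marks equal effects. Icam1 (0.98 at 24 h, 2.73 at 6 h) lies below it and Fosl1 (0.99 at 24 h, -0.22 at 6 h) above it.

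Genes fell into classes by which tests they passed. An effect was called lasting when the gene passed at both times in the same direction, early when it passed at 6 h but not at 24 h and the difference passed too, and late in the mirror case. There were 271 lasting genes (1.83% of those tested), 200 raised and 71 lowered, with 5 that were larger at 6 h by the test of the difference and none that were larger at 24 h. There were 38 early genes, 9 raised and 29 lowered at 6 h, and 10 late genes, 7 raised and 3 lowered at 24 h. Another 3 genes changed in opposite directions at the 2 times, and Layn, a hyaluronan receptor, passed the test of the difference but neither effect. A further 461 genes passed at 6 h and 651 at 24 h with no call on the difference, so whether these are confined to 1 time was not decided. The median effect of the lasting genes was 0.65 at 24 h and 0.74 at 6 h, on the log2 scale, with a median difference of -0.02. For 179 of the 271 the 95% interval of the difference lay within 1 log2 unit of 0.

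Most genes with a higher effect at 24 h had been lowered by injured BALF at 6 h and were no longer so at 24 h. Of these 38, 30 were lowered at 6 h and 8 were raised at 24 h, with median effects of 0.24 at 24 h and -0.51 at 6 h. They include regulators of cAMP-driven transcription, enzymes of lipid and sterol synthesis, a clock factor, an antioxidant enzyme and a decay factor of mRNA. All 38 had the same sign of the difference in both sexes. Their choice on female and male libraries together favours this, so nothing is read from it.

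Crem encodes a factor that acts at cAMP response elements, including a short inducible repressor. It lay at 13.6, 17.3 and 18.6 CPM (lowest, median and highest) in injured and 12.1, 14.1 and 15.2 in uninjured BALF at 24 h. At 6 h it lay at 8.60, 11.6 and 14.6 CPM in injured and 15.5, 30.4 and 34.2 in uninjured BALF. The groups overlapped at 24 h and not at 6 h, and uninjured BALF at 6 h stood above the rest. The difference was 1.48 ± 0.24 (log2, SE, n = 6 in each group, adjusted p = 0.00484, edgeR), from effects of 0.28 at 24 h and -1.19 at 6 h.

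Dgat1, which makes the final step of triglyceride synthesis, had a similar pattern. It lay at 19.2, 19.9 and 26.9 CPM in injured and 16.9, 20.5 and 26.1 in uninjured BALF at 24 h, and at 18.6, 21.0 and 26.9 CPM in injured and 32.2, 56.7 and 62.9 in uninjured BALF at 6 h. Only uninjured BALF at 6 h lay off the common level, which cells in media also had (means of 20.5 CPM at 24 h and 19.6 CPM at 6 h). The effect was 0.01 at 24 h and -1.27 at 6 h, and the difference 1.29 ± 0.19 (adjusted p = 0.00331, edgeR). Pmvk, phosphomevalonate kinase of the cholesterol pathway, had means of 17.6 CPM in injured and 20.4 in uninjured BALF at 24 h, and of 7.6 CPM in injured and 25.8 in uninjured BALF at 6 h. Its difference was 1.55 ± 0.31 (adjusted p = 0.0255, edgeR).

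**Figure D2:**
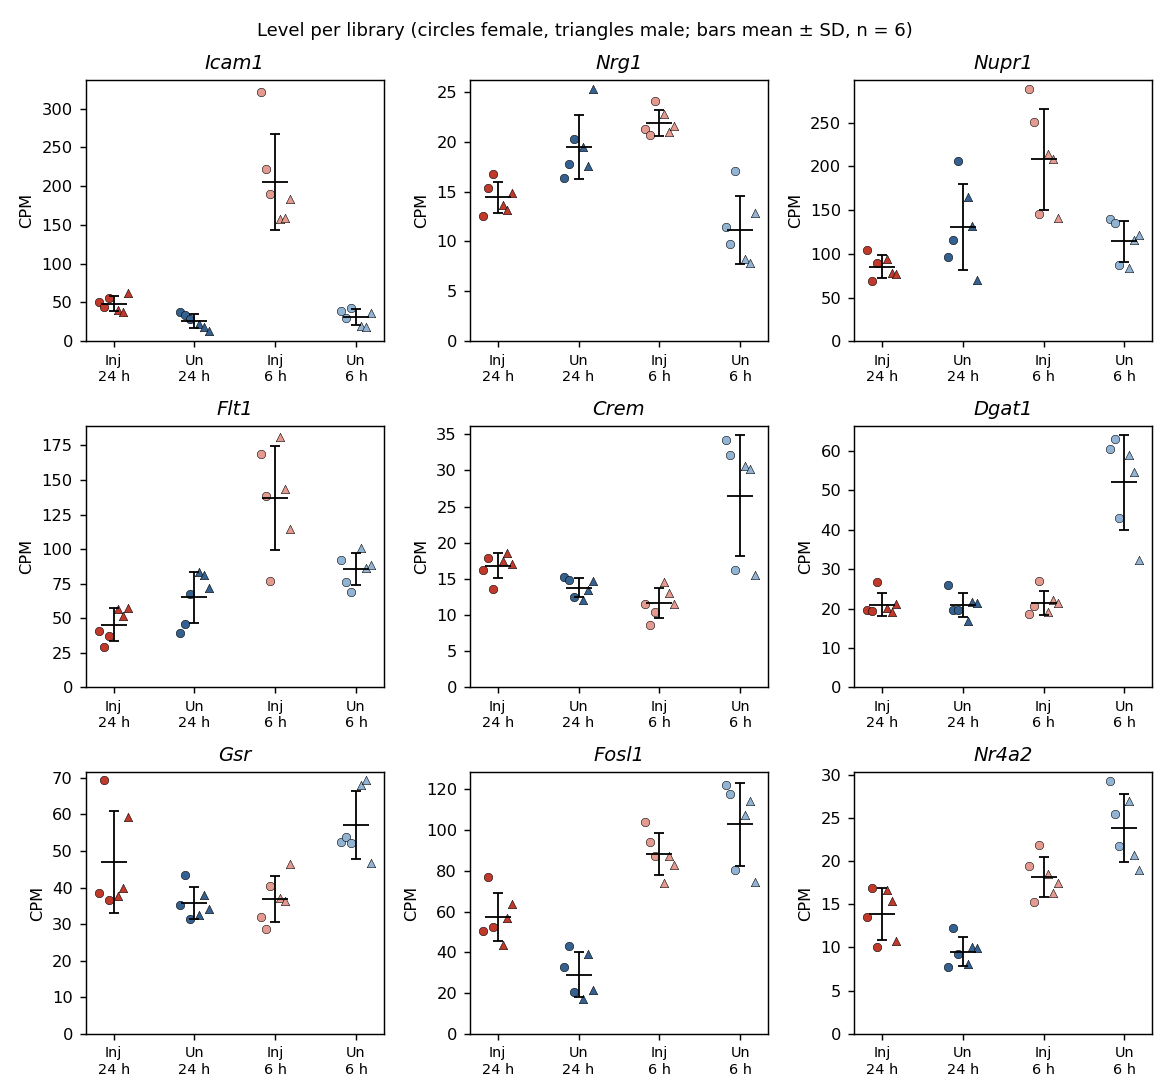
CPM of 9 genes in each library, in injured and uninjured BALF at 24 h and then at 6 h, with circles for female and triangles for male cells and bars for the mean ± SD (n = 6). Icam1 is highest in injured BALF at 6 h (158 to 322 CPM), while Crem and Dgat1 are highest in uninjured BALF at 6 h.

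The other early lowered genes with large differences were Nmnat2, an enzyme of NAD synthesis best known in axons (1.97), Chst1, a sulfotransferase of keratan sulfate (1.48), and Arntl, the clock factor BMAL1 (1.27). Arntl lay at 21.8 to 29.4 CPM in injured and 14.2 to 27.2 in uninjured BALF at 24 h, and at 22.1 to 33.4 CPM in injured and 30.4 to 74.3 in uninjured BALF at 6 h. Gsr, glutathione reductase, had a difference of 1.03, Zfp36l2, which promotes decay of AU-rich mRNAs, of 0.92, and the kinase gene Lrrk2 of 0.84. Bin1, a membrane-bending protein, and Cobll1, an actin-related protein, had 0.81 and 0.80. Klf4, a factor of smooth muscle and barrier genes, lay at 57.0 to 70.1 CPM in injured and 57.1 to 86.2 in uninjured BALF at 24 h, and at 27.4 to 31.8 CPM in injured and 38.7 to 62.7 in uninjured BALF at 6 h, a difference of 0.67. Bag3, a co-chaperone named for its narrow error and so chosen after its values were seen, had 0.53 ± 0.08 (adjusted p = 0.00331, edgeR). Of the 15 named genes with a higher effect at 24 h, Pmvk, Chst1, Arntl, Fosl1, Serpini1, Gsr, Layn and Nr4a2 lost the call when single libraries were left out (7 to 17 of 24 leave-outs).

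Over all 6 group means, those of media included, 29 of the 38 (76.3%) were highest in uninjured BALF at 6 h, against 16.1% of all genes. Media at 6 h was nearer to injured than to uninjured BALF at 6 h for 32 of 38 (84.2%), against 42.9% of all genes. The choice of these genes favours a high level in uninjured BALF at 6 h, so both counts are descriptions and nothing is read from them. Between 24 h and 6 h, uninjured BALF alone moved by its own test for 17 of the 38, injured BALF alone for 7 and both for 14. Over all genes 33.8% moved with time in injured and 37.7% in uninjured BALF, shares that include genes moving in both. The choice of genes by the difference favours movement with time, so nothing is read from these counts. Within uninjured BALF at 6 h, both libraries numbered 3 were the lowest 2 of 6 for 20 of the 38 (52.6%), against 16.4% of all genes. In Crem they were at 16.3 CPM (female) and 15.5 CPM (male), with the other libraries at 30.2 CPM or more. What numbers 3 share was not tested.

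Among late raised genes of average log2 CPM 1 or more, Fosl1, an AP-1 subunit that lasts longer after stimulation than Fos, had the largest difference. It lay at 43.8, 54.5 and 76.9 CPM in injured and 16.9, 26.9 and 43.2 in uninjured BALF at 24 h, and at 73.9, 87.1 and 104 CPM in injured and 74.5, 111 and 122 in uninjured BALF at 6 h. The groups did not overlap at 24 h and did at 6 h, and levels were lower at 24 h than at 6 h in both fluids, less so in injured BALF. The difference was 1.22 ± 0.26 (adjusted p = 0.0383, edgeR). Serpini1, the protease inhibitor neuroserpin, averaged 19.6 ± 3.18 CPM in injured and 9.73 ± 2.47 in uninjured BALF at 24 h, and 7.05 ± 1.42 CPM in injured and 7.21 ± 1.31 in uninjured BALF at 6 h (SD, n = 6 each). Nr4a2, an orphan nuclear receptor of the immediate early class, averaged 13.9 ± 2.98 CPM in injured and 9.53 ± 1.64 in uninjured BALF at 24 h. At 6 h it averaged 18.2 ± 2.35 CPM in injured and 23.8 ± 3.99 in uninjured BALF, so its level was lower at 24 h in both fluids. Its difference was 0.94. The others raised late were Lrmda, the junction protein gene Cgnl1, the glycoprotein hormone gene Stc2 and Dock11, named because the class is small. Lrmda, at lower counts, had a difference of 1.97. Of the 24 single leave-outs, Stc2 lost the call in 18, Dock11 in 17, Lrmda in 12 and Cgnl1 in 0. Stc2, Dock11 and Lrmda also lost it with a term for each library number within sex.

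The late lowered genes were Synpo, Cpa6 and Taf9b. Synpo, an actin-bundling protein of contractile processes, lay at 161, 199 and 281 CPM in injured and 285, 367 and 456 in uninjured BALF at 24 h, and at 84.8, 172 and 186 CPM in injured and 123, 126 and 152 in uninjured BALF at 6 h. Every injured BALF library lay below every uninjured one at 24 h, by a narrow gap, and the groups overlapped at 6 h. The difference was -1.08 ± 0.22 (adjusted p = 0.0288, edgeR). Cpa6, a carboxypeptidase, averaged 4.62 CPM in injured and 8.78 in uninjured BALF at 24 h, and 5.33 CPM in injured and 5.44 in uninjured BALF at 6 h. Its effect differed by -0.90 between times. All 3 were lost in 8 to 15 of the 24 single leave-outs.

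Genes with a lower effect at 24 h were mostly raised by injured BALF at 6 h. Of the 19, 16 were raised at 6 h, and at 24 h 5 were still raised and 5 were lowered, with median effects of -0.29 at 24 h and 0.97 at 6 h. Of these 19, 10 (52.6%) had the highest of all 6 group means in injured BALF at 6 h, against 21.1% of all genes, a level that the choice of the genes favours. Another 8 were highest in media at 24 h. Injured BALF alone moved with time for 5, uninjured BALF alone for 8 and both for 6, counts that the choice of the genes favours too.

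Icam1, the endothelial and stromal ligand for leukocyte integrins and a textbook NF-κB target, had the lowest p of the difference together with Nrg1, Dgat1 and Bag3. It lay at 37.8, 47.6 and 62.6 CPM in injured and 13.8, 25.1 and 37.3 in uninjured BALF at 24 h, and at 158, 187 and 322 CPM in injured and 18.4, 32.9 and 42.7 in uninjured BALF at 6 h. Injured and uninjured BALF did not overlap at either time, and only injured BALF at 6 h stood far above the rest. The effect was 0.98 at 24 h and 2.73 at 6 h, and the difference -1.74 ± 0.26 (adjusted p = 0.00331, edgeR). Vcam1, a second adhesion ligand, kept more of its effect, 1.03 at 24 h and 1.68 at 6 h, and its difference of -0.65 had an adjusted p of 0.189 by edgeR.

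Nrg1, neuregulin 1, a ligand of ERBB receptors, changed side. It lay at 12.6, 14.2 and 16.8 CPM in injured and 16.4, 18.6 and 25.3 in uninjured BALF at 24 h, and at 20.6, 21.4 and 24.0 CPM in injured and 7.85, 10.6 and 17.0 in uninjured BALF at 6 h. At 6 h every injured BALF library lay above every uninjured one, and at 24 h the 2 groups overlapped slightly. Its effect was -0.44 at 24 h, not past the threshold (adjusted p = 0.0697, edgeR), and 0.97 at 6 h, and the difference was -1.41 ± 0.20. Of the 15 named genes with a lower effect at 24 h, Ccl9 lost the call in 18 of 24 single leave-outs, Gm4070 in 16, Taf9b in 15, Synpo in 13, Fas in 10, Cpa6 in 8 and Nupr1 in 7. Nrg1 and Icam1 kept it in all 24 and with libraries 1 and 2 as 1 source (adjusted p of 0.0103 and 0.0126, limma-voom).

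Nupr1, a stress-induced chromatin protein, averaged 85.4 ± 13.1 CPM in injured and 131 ± 48.9 in uninjured BALF at 24 h, and 208 ± 57.7 CPM in injured and 114 ± 23.8 in uninjured BALF at 6 h (SD, n = 6 each), a difference of -1.47. Flt1, a receptor for VEGF, averaged 45.5 ± 11.6 CPM in injured and 65.2 ± 18.4 in uninjured BALF at 24 h, and 137 ± 37.7 CPM in injured and 85.6 ± 11.3 in uninjured BALF at 6 h, a difference of -1.20. For both, injured BALF held the lowest mean of the 4 groups at 24 h and the highest at 6 h. Ccl9, a mouse chemokine, was raised at 6 h by 2.22 and differed by -1.75 between times, and AA467197, which encodes a small mitochondrial protein, was raised at 6 h by 2.01 and differed by -1.88. Low-count genes with larger differences were Veph1 (-2.80) and Fhod3 (-2.58) among the lower and Nap1l5 (2.22) and Liph (2.04) among the higher ones, named after their values were seen, with means of 2.48 CPM or less in the 4 groups.

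The 4 other genes with an effect that was smaller at 24 h but still raised include Fas, the death receptor, and Nhs, a regulator of actin. The others are the interferon-inducible GTPase genes Gvin1 and Gm4070, related copies between which reads may be split. Fas lay at 41.2 to 54.8 CPM in injured and 23.0 to 40.2 in uninjured BALF at 24 h, and at 37.3 to 69.7 CPM in injured and 14.1 to 21.9 in uninjured BALF at 6 h, without overlap at either time. Its difference was -0.98 ± 0.20. In all 4 genes uninjured BALF rose from 6 h to 24 h by its own test (log2 of 0.70 for Fas, 1.34 for Nhs, 0.86 for Gvin1 and 1.01 for Gm4070). Injured BALF passed its own test in none of them (-0.28, 0.29, -0.20 and -0.06 in the same order). The 3 genes that changed in opposite directions were St5, a Rab regulator (-0.46 at 24 h, 0.57 at 6 h), Apobr, a lipoprotein receptor (-0.60 at 24 h, 0.55 at 6 h), and Ptprn, a secretory granule protein (0.32 at 24 h, -0.34 at 6 h).

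**Figure D3:**
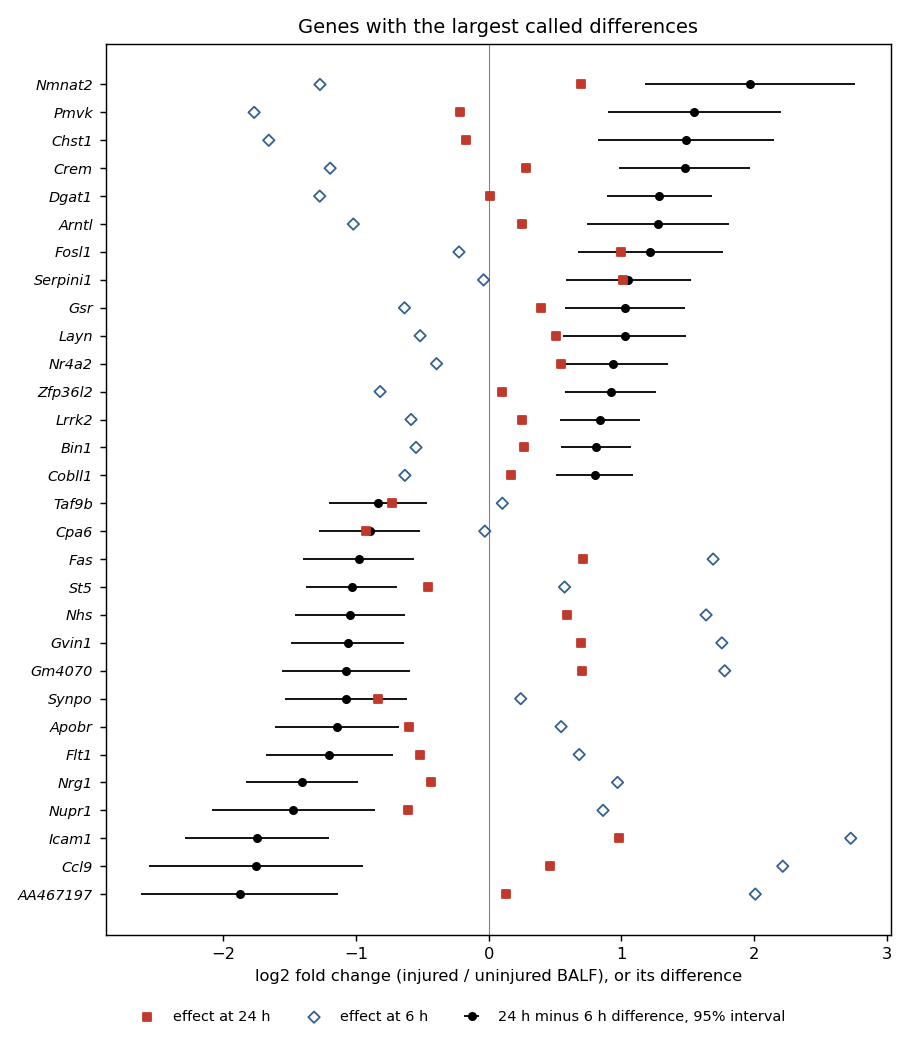
For the 30 named genes, the log2 difference of the injury effect (24 h minus 6 h) with its 95% interval, beside the effect at 24 h (squares) and at 6 h (diamonds). Effects at 6 h lie on both sides of 0, and most effects at 24 h lie closer to 0.

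The 300 bases around the annotated start of the genes (250 before and 50 from the start on, RefSeq, GRCm38.p6) were searched on both strands for the NF-κB consensus, the AP-1 site TGANTCA, the cAMP response element TGACGTCA and the antioxidant response element core TGACNNNGC, of which a palindromic AP-1 match can lie inside a longer match of another motif. Windows are shown for a lasting chemokine gene, an early raised one, and an early lowered co-chaperone gene, with every match in capitals. The NF-κB consensus was found in Cxcl2 in overlapping letters between -97 and -87, and in Ccl9 at -35 to -26 after an AP-1 match at -53 to -47. Bag3 held an AP-1 match at -20 to -14.
Cxcl2 (chr5:90903649-90903948, plus strand): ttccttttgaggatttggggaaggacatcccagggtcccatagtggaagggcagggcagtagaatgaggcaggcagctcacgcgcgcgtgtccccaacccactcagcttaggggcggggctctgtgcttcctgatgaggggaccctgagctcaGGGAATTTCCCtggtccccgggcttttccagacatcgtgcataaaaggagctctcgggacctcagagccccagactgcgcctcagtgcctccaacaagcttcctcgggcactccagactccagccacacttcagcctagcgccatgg
Ccl9 (chr11:83578587-83578886, minus strand): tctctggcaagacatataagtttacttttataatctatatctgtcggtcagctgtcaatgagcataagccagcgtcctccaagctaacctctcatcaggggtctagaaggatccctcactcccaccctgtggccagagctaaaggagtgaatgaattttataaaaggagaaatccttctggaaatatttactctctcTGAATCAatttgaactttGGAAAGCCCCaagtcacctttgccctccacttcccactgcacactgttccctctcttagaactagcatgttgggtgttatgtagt
Bag3 (chr7:128523333-128523632, plus strand): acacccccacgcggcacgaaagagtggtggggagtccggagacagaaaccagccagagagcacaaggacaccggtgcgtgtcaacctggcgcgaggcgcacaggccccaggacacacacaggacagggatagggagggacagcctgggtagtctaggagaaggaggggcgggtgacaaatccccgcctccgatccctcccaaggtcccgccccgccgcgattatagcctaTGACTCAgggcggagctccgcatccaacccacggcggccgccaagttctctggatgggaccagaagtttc
Of the lasting raised genes 138 of 200 had a window, and 32 of these (23.2%) held the NF-κB consensus and 31 (22.5%) the AP-1 site, against 6.32% and 6.56% of the 10601 genes tested that had a window. Of the 19 genes with a lower effect at 24 h, 12 had a window, 2 (16.7%) with the NF-κB consensus and 4 (33.3%) with the AP-1 site. Of the 38 with a higher effect at 24 h, 31 had a window, 1 (3.23%) with the NF-κB consensus, 2 (6.45%) with the AP-1 site, 6 (19.4%) with the antioxidant core, against 16.9% of all, and 0 with the cAMP response element, against 3.54% of all. A gene with several annotated starts counts once if any of its windows holds the motif, and the shares were not tested.

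Of the 271 lasting effects 200 were raised. The 10 raised genes with the largest smaller effect of both times were Nos2, Il1a, Cxcl2, Csf2, Csf3, Cxcl5, Cxcl3, Lcn2, Cxcl1 and Steap4. Nos2, the inducible nitric oxide synthase, lay at 17.3, 39.0 and 277 CPM in injured and 0.0277, 0.0748 and 6.41 in uninjured BALF at 24 h, and at 14.7, 20.1 and 52.2 CPM in injured and 0, 0.293 and 0.646 in uninjured BALF at 6 h. Cxcl2, a neutrophil chemokine, lay at 5.48, 6.97 and 7.76 CPM in injured and 0, 0.249 and 2.70 in uninjured BALF at 24 h, and at 38.7, 61.0 and 96.3 CPM in injured and 0.418, 1.64 and 3.13 in uninjured BALF at 6 h. Both separated the fluids at both times, and Cxcl2 was lower at 24 h than at 6 h in either fluid. The difference of the effect was -1.51 ± 0.74 for Cxcl2 (adjusted p = 0.515, edgeR), an interval of -3.04 to 0.02, and -0.90 ± 1.23 for Nos2 (adjusted p = 0.906), an interval of -3.43 to 1.64. The 5 lowered genes that the same rule named were the chemerin receptor Cmklr1 (-1.91 at 24 h, -1.27 at 6 h), the GDNF receptor Gfra1, the adrenergic receptor Adra1b, Arl4d and Lingo1.

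Of 17 chemokine and colony-stimulating factor genes 13 were raised at 24 h (3.27% of all genes were) and 12 at 6 h (2.64% of all), and none of these 17 passed the test of the difference by edgeR or DESeq2, also at an unadjusted p under 0.05. The list does not hold Ccl9, which did pass. Their median effect was 2.73 at 24 h and 3.01 at 6 h, against 0.00 for all genes at both times. Ccl2, the monocyte chemokine, lay at 791, 897 and 996 CPM in injured and 32.7, 61.5 and 414 in uninjured BALF at 24 h, and at 1390, 1610 and 2210 CPM in injured and 117, 149 and 678 in uninjured BALF at 6 h. Of 16 NF-κB subunits and inhibitors the same 13 were raised at both times, with medians of 0.79 at 24 h and 0.97 at 6 h, and Nfkbia, the inhibitor IκBα, had an effect of 1.55 at 24 h and 1.56 at 6 h. With libraries 1 and 2 summed the chemokine list had 10 raised at each time, and the NF-κB list 8 at 24 h and 10 at 6 h. Of 14 cytokine and receptor genes 5 were raised and 1 lowered at 24 h and 6 were raised at 6 h, among them Il6 at both times (2.05 at 24 h, 2.48 at 6 h). Of 11 adhesion genes 4 were raised and 1 lowered at 24 h and 4 raised at 6 h, and Icam1 alone passed the test of the difference.

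Acute phase and innate defence genes were raised at both times, 9 of 11 at 24 h (3.27% of all genes were) and 8 of 11 at 6 h (2.64% of all). Their median effects were 2.29 at 24 h and 1.52 at 6 h. Saa3, serum amyloid A of stromal cells and macrophages, lay at 115, 220 and 425 CPM in injured and 1.35, 2.31 and 45.8 in uninjured BALF at 24 h, and at 18.7, 27.7 and 60.3 CPM in injured and 0.553, 4.90 and 8.57 in uninjured BALF at 6 h. Its level in injured BALF was higher at 24 h, while the effect differed by 1.65 ± 0.98 (adjusted p = 0.647, edgeR). Hp, haptoglobin, passed at 24 h alone (2.91), and no gene of the list passed the test of the difference by edgeR or DESeq2, 1 at an unadjusted p under 0.05. With libraries 1 and 2 summed 6 were raised at 24 h and 4 at 6 h. Of 22 interferon-stimulated genes 1 was raised at 24 h and 4 at 6 h, Gbp2 and Gbp5 among the 4, beside the same 3.27% and 2.64% of all genes. All 22 had effects above 0 at both times, with medians of 0.97 at 24 h and 0.79 at 6 h, and 12 at 24 h and 8 at 6 h had an unadjusted p under 0.05. DESeq2 called 6 at 24 h and 5 at 6 h.

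**Figure D4:**
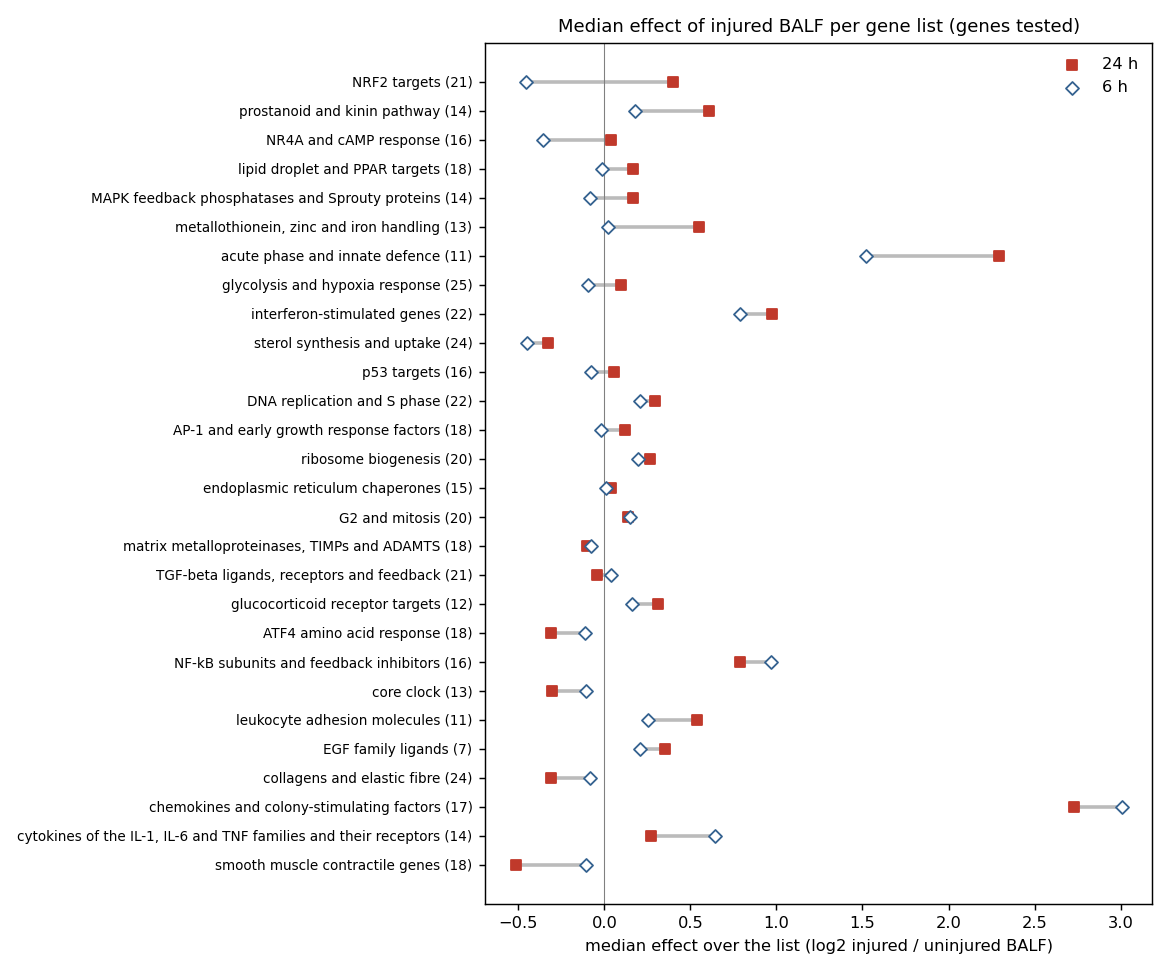
Median log2 effect of injured against uninjured BALF over the tested genes of each list, at 24 h and at 6 h, ordered by the median difference. NRF2 targets have medians of 0.40 at 24 h and -0.45 at 6 h, and chemokines of 2.73 at 24 h and 3.01 at 6 h.

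NRF2 targets, the genes by which cells answer oxidants, had differences of 1 sign with few single calls. All 21 tested had a difference above 0, against 7333 of the 14816 genes, and the median was 0.95. Gsr alone passed the test of the difference, and 14 of 21 had an unadjusted p under 0.05. At 6 h 5 were lowered (2.58% of all genes were), namely Gclc, Srxn1, Gsr, Osgin1 and Ftl1, and at 24 h none passed in edgeR or DESeq2, with 6 of 21 higher at an unadjusted p under 0.05. Srxn1, sulfiredoxin, lay at 125, 208 and 585 CPM in injured and 104, 160 and 264 in uninjured BALF at 24 h, and at 209, 234 and 653 CPM in injured and 722, 782 and 999 in uninjured BALF at 6 h, with a difference of 2.03 ± 0.50 (adjusted p = 0.0824, edgeR). Hmox1, heme oxygenase, averaged 1510 ± 861 CPM in injured and 786 ± 385 in uninjured BALF at 24 h, and 2870 ± 1230 CPM in injured and 5380 ± 643 in uninjured BALF at 6 h, with a difference of 1.85 ± 0.48 (adjusted p = 0.101). Both were highest in uninjured BALF at 6 h and far above media, where Srxn1 averaged 104 CPM and Hmox1 461 CPM at 6 h. DESeq2 called the difference for 5 of the 21. With libraries 1 and 2 summed none passed at 6 h and the median difference was 0.97.

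Genes of sterol synthesis and uptake were lowered by injured BALF, 14 of 24 at 6 h and 5 of 24 at 24 h (3.04% of all genes were at 24 h), with medians of -0.33 at 24 h and -0.45 at 6 h. Pmvk alone passed the test of the difference. Hmgcs1, a synthase early in the pathway and a target of the sterol sensor SREBP2, had an effect of -0.42 at 24 h and of -0.63 at 6 h, past the threshold at 6 h. Of Mvk and Lss, enzymes before and after Pmvk in the pathway, both were lowered at both times. With libraries 1 and 2 summed 1 was lowered at 24 h and 3 at 6 h, and without the 2 uninjured BALF 24 h libraries that stand apart 1 was lowered at 24 h.

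Contractile genes of smooth muscle were called at 24 h. Of 18, 7 were lowered at 24 h and none was changed at 6 h by edgeR or DESeq2, with 1 at an unadjusted p under 0.05, and the medians were -0.52 at 24 h and -0.11 at 6 h. The 7 were Actg2, Mylk, Tpm1, Tpm2, Lmod1, Synpo2 and Vcl. Tpm2, a tropomyosin, averaged 572 ± 66.1 CPM in injured and 816 ± 146 in uninjured BALF at 24 h, and 883 ± 93.2 CPM in injured and 930 ± 120 in uninjured BALF at 6 h. Acta2, smooth muscle actin, had an effect of -0.49 at 24 h (adjusted p = 0.116, edgeR) and of -0.03 at 6 h. None of the 18 passed the test of the difference by edgeR or DESeq2, 4 did at an unadjusted p under 0.05, and with libraries 1 and 2 summed 2 were lowered at 24 h. Without the 2 uninjured BALF 24 h libraries that stand apart 13 were lowered at 24 h and 1 passed the test of the difference. Of 12 pericyte markers tested 3 were lowered at 24 h (3.04% of all genes were), namely Mcam (-1.18), Cd248 (-1.04) and Ebf1 (-0.56). At 24 h 2 of the 12 had effects above 0, and at 6 h 1 was raised and 1 lowered. With libraries 1 and 2 summed 1 was lowered at 24 h.

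**Figure D5:**
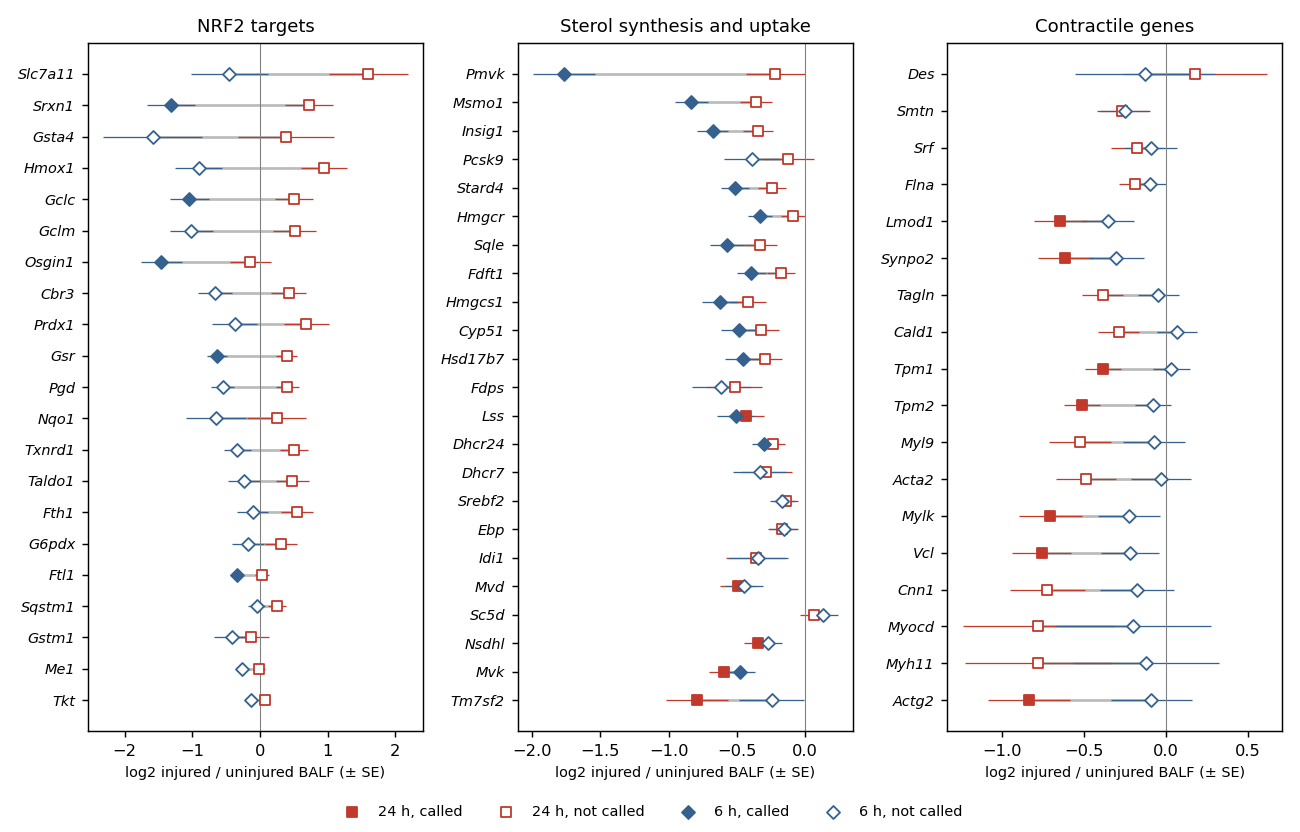
Effects of injured against uninjured BALF (log2 ± SE) at 24 h and at 6 h for NRF2 targets, sterol genes (1 of the 24 is not shown) and contractile genes, filled where the gene passed the test at that time. Most NRF2 targets lie above 0 at 24 h and below at 6 h, and 7 contractile genes are filled at 24 h and none at 6 h.

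Matrix genes were called at both times. Of 24 collagen and elastic fibre genes 2 were raised and 4 lowered at 24 h, against 1 raised at 6 h, and none passed the test of the difference by edgeR (1 by DESeq2, 6 at an unadjusted p under 0.05). Over all genes 6.31% were called at 24 h and 5.22% at 6 h, and with libraries 1 and 2 summed the list had 2 raised and 1 lowered at 24 h and 1 raised at 6 h. Eln, elastin, lay at 6.71, 18.7 and 30.2 CPM in injured and 16.5, 134 and 296 in uninjured BALF at 24 h, and at 33.5, 138 and 406 CPM in injured and 56.2, 186 and 503 in uninjured BALF at 6 h. The libraries of 1 group spread widely and the groups overlapped at both times, and the difference was -2.53 ± 0.95 (adjusted p = 0.311, edgeR). Col5a3, a minor fibrillar collagen chain, was raised at both times (0.76 at 24 h, 1.49 at 6 h), and Dcn, decorin, at 24 h (1.38). Of 18 metalloproteinases, TIMPs and ADAMTS proteases 6 were raised and 5 lowered at 24 h, and 4 raised and 1 lowered at 6 h, with Adamts5 lowered at 24 h (-0.99). When libraries 1 and 2 were summed, 2 were raised and 2 lowered at 24 h, and 2 raised and 1 lowered at 6 h. Of 21 TGF-β genes 1 was raised and 3 lowered at 24 h, Tgfb2 among the 3 (-0.88), and 1 was lowered at 6 h.

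Counts in the signalling lists are given beside 0.385% of all genes called for the difference, 6.31% at 24 h and 5.22% at 6 h. Of 18 AP-1 and early growth response factors Fosl1 and Klf4 passed the test of the difference, 4 were raised at 24 h and 1 was raised and 1 lowered at 6 h, while Fos had effects of -0.78 at 24 h and 0.03 at 6 h and Egr1 of 0.12 and 0.46, with SEs of 0.55 or more. Of 16 NR4A and cAMP response genes Crem and Nr4a2 passed the test of the difference, 1 was raised at 24 h and 2 were lowered at 6 h. Of the lowered was Nr4a3, at a mean of 9.87 CPM in injured and 63.3 in uninjured BALF at 6 h, whose difference of 2.79 had an adjusted p of 0.0999 by edgeR. In limma-voom with libraries 1 and 2 as 1 source neither the AP-1 nor the NR4A list had a call of the difference, with adjusted p of 0.0543 for Crem, 0.201 for Nr4a2 and 0.129 for Fosl1 and Klf4, and the NR4A list had none at 24 h. Of 7 EGF family ligands Nrg1 alone passed the test of the difference, and 1 was lowered at 24 h and 2 raised at 6 h. Of 14 MAPK feedback genes 2 were raised and 1 lowered at 24 h and 1 raised at 6 h. Of 13 clock genes Arntl alone passed the test of the difference, with 1 lowered at 24 h and 1 at 6 h. Of 12 glucocorticoid receptor targets 4 were raised and 1 lowered at 24 h and 5 raised and 1 lowered at 6 h.

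Among metabolic and stress lists, read beside the same shares of all genes, lipid droplet and PPAR targets had 3 of 18 raised and 1 lowered at 24 h and 2 raised and 3 lowered at 6 h, with Dgat1 alone past the test of the difference. Angptl4, a lipase inhibitor, had an effect of 1.89 at 24 h and 1.20 at 6 h, and Plin2, a droplet coat protein, of 0.86 at 24 h and 0.08 at 6 h, with Angptl4 raised at both times and Plin2 past the test at 24 h. Metallothionein, zinc and iron genes had 5 of 13 raised at 24 h and 5 raised and 2 lowered at 6 h, against 3 raised at 24 h and 2 raised at 6 h with libraries 1 and 2 summed. Prostanoid and kinin genes had 5 of 14 raised at 24 h and 3 at 6 h. ATF4 targets had 4 of 18 lowered at 24 h and 1 raised and 2 lowered at 6 h, with Nupr1 past the test of the difference, and with libraries 1 and 2 summed 2 were lowered at 24 h and 0 changed at 6 h. Of 16 p53 targets 2 were raised at 24 h and 1 at 6 h, with Fas past the test of the difference. Glycolysis and hypoxia genes had 2 of 25 raised at 24 h and 1 raised and 1 lowered at 6 h. In ribosome biogenesis 1 of 20 was raised at 24 h and none at 6 h by edgeR, 14 at 24 h and 6 at 6 h were higher at an unadjusted p under 0.05, and DESeq2 called 2 at 24 h and 1 at 6 h. No gene of the endoplasmic reticulum chaperones (15), S phase (22) or mitosis (20) passed any of the 3 tests by edgeR, and at an unadjusted p under 0.05 these lists had 1, 6 and 0 genes at 24 h, 0, 1 and 0 at 6 h and 1, 0 and 0 for the difference, with 1 S phase gene called at 24 h by DESeq2.

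Genes called at 1 time without a call on the difference were led at 24 h by Ets2, a transcription factor downstream of MAPK, the laminin chain Lamb2, the kinase Sik2, Aff3 and the ubiquitin ligase Lrsam1. Ets2 lay at 47.8, 64.3 and 72.6 CPM in injured and 28.1, 31.4 and 42.0 in uninjured BALF at 24 h, and at 46.3, 49.0 and 54.6 CPM in injured and 38.1, 38.7 and 47.0 in uninjured BALF at 6 h, with a difference of 0.61 ± 0.14 (adjusted p = 0.062, edgeR). At 6 h they were led by Alpk2, a kinase of low counts, Eps8, an actin-capping adaptor, Cebpd, an inflammatory transcription factor, the GTPase Gbp2 and Enc1. Eps8 lay at 27.6, 31.6 and 36.8 CPM in injured and 38.7, 43.7 and 51.7 in uninjured BALF at 24 h, and at 13.6, 17.2 and 20.2 CPM in injured and 25.7, 45.5 and 61.8 in uninjured BALF at 6 h. Injured BALF was lower at both times without overlap, though the effect of -0.46 at 24 h had an adjusted p of 0.111 by edgeR. Complete separation of the 2 fluids was seen for 2.15% of all genes at 24 h and 3.51% at 6 h, and among the 57 genes for 3 of 38 and 6 of 19 at 24 h and for 22 of 38 and 12 of 19 at 6 h. The 57 were chosen on the same values, so nothing is read from their counts.

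No gene differed between female and male cells in the 24 h minus 6 h difference by edgeR's test of that contrast, with 116 genes at an unadjusted p under 0.05. Fitted alone, female libraries gave 0 calls of the difference, with 415 genes at an unadjusted p under 0.05, and male libraries gave 2.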

How the data were processed

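RNA was measured by stranded mRNA sequencing of cultured mouse cells. The authors deposited counts per gene for the 36 libraries, per the labels. The submitters' processing notes name STAR 2.5.2b, RSEM 1.2.31, DESeq2 and the build GRCm38, without their roles. The counts are whole numbers, and no source here says whether they are rounded estimates. Symbols were found for 48349 of 48795 identifiers, and identifiers without one held at most 0.051% of the counts of a library.

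The 24 BALF libraries were fitted together in edgeR 4.0.16 (R 4.3.3) by quasi-likelihood, with a mean for each of the 4 groups and a term for sex. TMM factors came from all 36 libraries and ran from 0.909 to 1.08 over the 24. Genes with low counts were removed with edgeR's filter, which left 14816, the fit had 19 residual degrees of freedom, and the common biological coefficient of variation was 20.6%. P-values were adjusted by Benjamini and Hochberg over all genes tested, with a threshold of 0.05. The contrasts tested were injured against uninjured BALF at 24 h, at 6 h, and the first minus the second. SEs come from the F statistic. The fit was tested on simulated data.

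Named were the 15 genes with the highest and the 15 with the lowest difference among those called at an average log2 CPM of 1 or more, 10 raised and 5 lowered lasting genes with the largest smaller effect, the 5 lowest p of each class called at 1 time, 2 members of each list with the lowest p of the difference and any called member, and a fixed panel. The members, lists and tests were chosen with earlier results of these data known. Alternatives were DESeq2 1.42.0, limma 3.58.1 with voom, other scalings and filters, other designs, libraries 1 and 2 summed or fitted as 1 source, and each library left out. Setting aside the 2 uninjured BALF 24 h libraries and summing the closest pair were chosen after seeing the data. So was exchanging numbers 1 and 3 in female uninjured BALF 24 h. The values of 1 gene of the fixed panel are not reported here.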

Additional observations from a re-analysis of the deposited data

Results flagged for a closer look

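The effect of injured BALF differed between 24 h and 6 h for 57 genes by edgeR's test of that difference.

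Among 208 groups of 6 libraries, 25 had a library far from the other 5, by a gap to the nearest of more than 0.625 of the range. Chance gives this in about 1 of 20 groups of independent, normally distributed values. Here the groups mix the sexes and the same libraries recur over genes, so that rate may not hold. In injured BALF at 24 h, female replicate 3 was high for Dgat1 (26.85 CPM, nearest 21.07), Lrrk2 (166.1 CPM, nearest 138.7), Nos2 (277.3 CPM, nearest 52.01) and Cxcl1 (366.8 CPM, nearest 164.5), and male replicate 3 for Arl4d (4.636 CPM, nearest 2.768). In uninjured BALF at 24 h, female replicate 2 was high for Fas (40.16 CPM), Il1a (1.769 CPM), Cxcl2 (2.698 CPM), Csf2 (0.6635 CPM), Csf3 (2.477 CPM) and Cxcl3 (3.981 CPM), and female replicate 1 for Layn (61.21 CPM). In injured BALF at 6 h, female replicate 3 was high for Bin1 (152.1 CPM) and for macrophage markers (93.9 CPM), and male replicate 3 for Cobll1 (68.19 CPM). In uninjured BALF at 6 h, male replicate 1 was high for Synpo (151.5 CPM), female replicate 3 for Cxcl1 (67.72 CPM) and male replicate 3 for Arl4d (11 CPM).

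Male replicate 3 was also high for mesothelial markers, at 168 CPM in injured BALF at 24 h, 212 CPM (injured BALF) and 244 CPM (uninjured BALF) at 6 h, and for epithelial markers, at 14.8 CPM in injured BALF at 24 h, 28.3 CPM (injured BALF) and 28.9 CPM (uninjured BALF) at 6 h. In uninjured BALF at 24 h male replicate 3 was the lowest of its group for both, at 23 CPM for mesothelial and 1.36 CPM for epithelial markers. In uninjured BALF at 6 h it was low for lung fibroblast markers, at 498 CPM with the nearest at 677 CPM. The part of these libraries in the results was not tested beyond leaving each out.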

How the results depend on the processing

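Counts are of genes whose effect differed, changed at 24 h and at 6 h, and were lasting, early and late, in that order (57, 935, 773, 271, 38 and 10 as reported). None of the 57 genes changed the sign of its difference, though all settings reuse libraries on which they were chosen. The cause of the changes was not tested. At 24 h 485 genes were raised and 450 lowered as reported, against 447 and 571 with upper quartile factors, 645 and 678 with the replicate block, 410 and 529 without replicate 3 and 473 and 516 without the 2 uninjured BALF 24 h libraries. Without replicate 3 the median difference was -0.15 for acute phase genes (0.19 as reported) and -0.12 for interferon-stimulated genes (0.17 as reported). With libraries 1 and 2 summed the counts were 0, 333, 212, 81, 0 and 0, with that and a replicate block 0, 529, 280, 129, 0 and 0, with the closest pair summed 0, 191, 187, 73, 0 and 0, and in limma-voom with libraries 1 and 2 as 1 source 11, 582, 426, 158, 8 and 1. DESeq2 moved the difference to 170, early to 81 and late to 59. Voom with library weights gave 642, 2606, 2043, 713, 261 and 283. Separate means for each sex gave 33 for the difference, 24 early and 2 late, and all 36 libraries 24 early. A threshold of 0.1 gave 114, 1494 and 38 late, and one of 0.01 gave 9, 371, 360, 120, 8 and 0. Female libraries alone gave 0, 0, 34, 0, 0 and 0, male ones 2, 488, 204, 101, 0 and 1. Without replicate 1 in any group the counts were 0, 267, 146, 50, 0 and 0, without replicate 2 0, 277, 159, 72, 0 and 0, and without replicate 3 210 for the difference, 127 early and 61 late. Without the 2 uninjured BALF 24 h libraries that stand apart they were 87 for the difference and 36 late. Single libraries left out gave 30 to 128, 523 to 1422, 522 to 882, 191 to 320, 22 to 71 and 1 to 40, with the difference lowest without female injured BALF 6 h replicate 1 and highest without male injured BALF 6 h replicate 3. The count of the difference moved by over 1.5 times without any of 14 libraries, namely female injured BALF 6 h replicate 1 (30), female injured BALF 6 h replicate 2 (31), male injured BALF 6 h replicate 1 (36), male injured BALF 6 h replicate 2 (36), male injured BALF 6 h replicate 3 (128), female injured BALF 24 h replicate 2 (35), female injured BALF 24 h replicate 3 (97), female uninjured BALF 6 h replicate 1 (35), female uninjured BALF 6 h replicate 2 (34), male uninjured BALF 6 h replicate 1 (31), female uninjured BALF 24 h replicate 1 (99), female uninjured BALF 24 h replicate 2 (88), female uninjured BALF 24 h replicate 3 (34), male uninjured BALF 24 h replicate 1 (32).

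Same-numbered libraries correlated at 0.27 to 0.70 among 3 groups and at -0.53 to 0.61 with uninjured BALF at 24 h, so the numbers were not taken as pairs. The replicate block gave 89 for the difference, 54 of them shared, and 23 late, and with the numbers exchanged 384, 2285, 1663, 618, 152 and 174.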
